A study of Arabidopsis thaliana with 12 samples.

Results

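The breakdown of the branched-chain amino acid leucine and the electron transfer flavoprotein (ETF) pathway were followed through 6 Arabidopsis genes: IVD (AT3G45300), MCCA (AT1G03090), MCCB (AT4G34030), ETFALPHA (AT1G50940), ETFBETA (AT5G43430) and ETFQO (AT2G43400). Members were the probe sets whose platform annotation names one of these genes alone. Each of the 6 had 1 such probe set, so 6 of 22746 non-control probe sets are described, and none was lost to a filter. The data are 12 Affymetrix ATH1 arrays, on which a set of short oligonucleotides reports each transcript. Seeds of the Wassilewskija (WS) ecotype were grown at 23 °C in a greenhouse with 16 h of light and 8 h of dark. They came from a wild type (WT) and a mutant named KD. Each genotype was sampled 14 days after flowering (14DAF), 16 days after flowering (16DAF) and as dry seeds after desiccation, with 2 arrays per genotype and stage and many seeds pooled for each extraction. The labels describe 14DAF as the middle and 16DAF as the end of reserve accumulation.

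The title of the series speaks of altered lysine metabolism, and the design cites Zhu and Galili for the genotypes. The alleles and transgenes that KD carries, and any promoter driving them, are not stated in the labels or the design text. LKR/SDH (AT4G33150), the first enzyme of lysine catabolism, gave log2 signals of 8.87 to 10.61 on the WT arrays and 12.80 to 13.88 on the KD arrays. The position of its probe set relative to any insertion is not given either, so this signal checks no knockout. The source names of 2 arrays, replicate 1 of WT 16DAF and of KD dry, give the other genotype than their titles and descriptions. The titles were followed, and on LKR/SDH both arrays lay with the genotype of their titles, at 9.80 and 12.83. The 2 arrays of a group correlated at r = 0.983 to 0.993 over probe sets. The labels call them repeats without saying whether the plants were separate. The p-values therefore rest on a spread that may be technical.

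Leucine, isoleucine and valine are broken down in plant mitochondria after transamination and oxidative decarboxylation. In the leucine branch, isovaleryl-CoA dehydrogenase (IVD) oxidises isovaleryl-CoA, and methylcrotonyl-CoA carboxylase, built of a biotin-carrying subunit (MCCA) and a second subunit (MCCB), carboxylates the product. The electrons that IVD removes pass to ETF, a heterodimer of an alpha and a beta subunit, and from there through ETF:ubiquinone oxidoreductase (ETFQO) to the ubiquinone of the respiratory chain. In Arabidopsis this route is known to support respiration when sugars run short, and it also takes electrons from D-2-hydroxyglutarate dehydrogenase, which acts in lysine breakdown.

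The 6 genes did not share one course. IVD, MCCA and MCCB had their lowest group mean at 16DAF in both genotypes. Their highest mean was in KD dry seeds, which for MCCA overlapped WT dry seeds. ETFALPHA was highest at 14DAF, whereas ETFBETA was highest in KD at 16DAF and in KD dry seeds. ETFQO varied least, over 0.95 log2 units on the 12 arrays, against 4.30 for MCCB, 2.83 for IVD, 2.09 for MCCA, 1.46 for ETFALPHA and 1.44 for ETFBETA. All 6 lay above the array median on all 12 arrays, and the lowest position was the 56.9th percentile, for MCCB on WT 16DAF replicate 1.

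**Figure D1:**
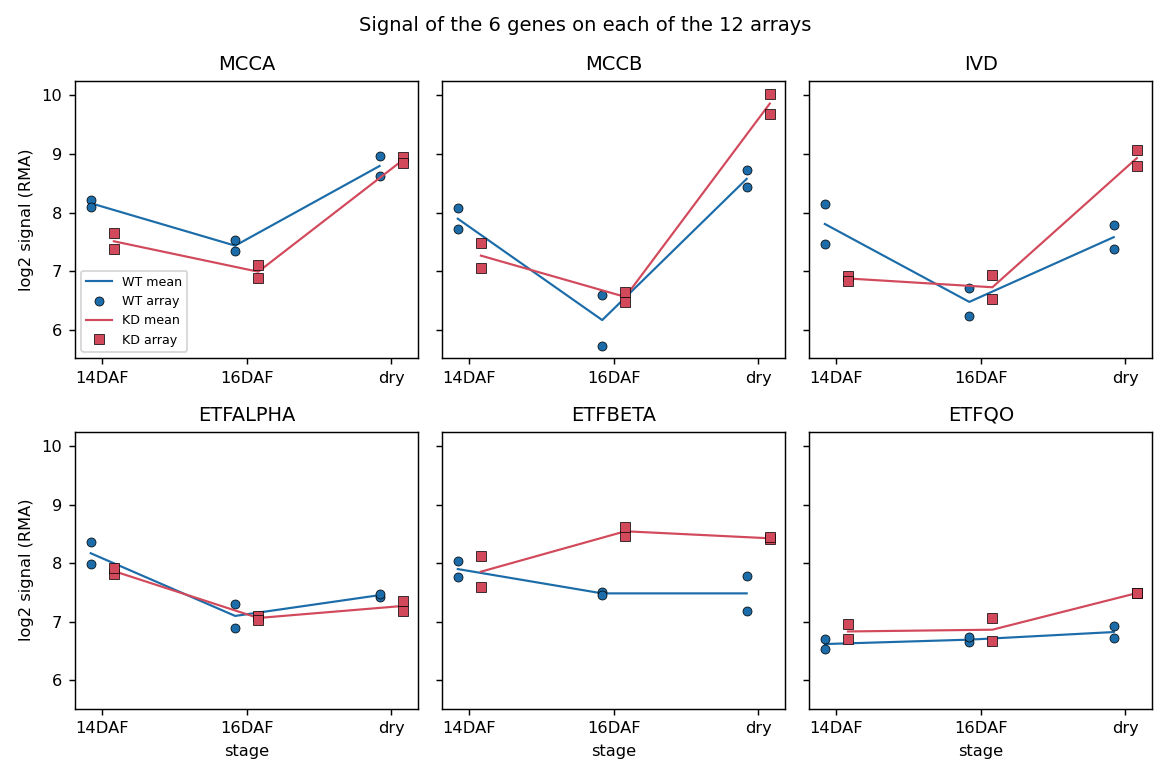
Signal of the 6 genes by stage, as log2 RMA values; each point is 1 array (blue circles WT, red squares KD) and lines join the means of 2 arrays. IVD, MCCA and MCCB have their lowest mean at 16DAF in both genotypes and their highest in KD dry seeds. For IVD the KD arrays at 14DAF and 16DAF overlap, and the WT dry mean (7.58) is below that of WT 14DAF (7.80). ETFALPHA falls after 14DAF, and both KD arrays of ETFBETA lie above both WT arrays at 16DAF and in dry seeds.

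IVD, which oxidises isovaleryl-CoA, had log2 signals of 7.46 and 8.15 in WT at 14DAF, 6.24 and 6.71 at 16DAF, and 7.78 and 7.38 in dry seeds. In KD it measured 6.91 and 6.84, then 6.52 and 6.93, then 9.07 and 8.79. Both dry KD arrays were therefore above the 10 other arrays. The remaining order ran from WT 14DAF (7.80 ± 0.49) and WT dry (7.58 ± 0.28), whose ranges overlapped, to KD 14DAF (6.88 ± 0.05), KD 16DAF (6.72 ± 0.29) and WT 16DAF (6.47 ± 0.33; SD, n = 2), in which each overlapped the next.

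MCCA, the biotin-carrying subunit, measured 8.22 and 8.10, then 7.53 and 7.34, then 8.62 and 8.97 over the 3 stages of WT. The KD arrays gave 7.37 and 7.65, then 6.88 and 7.10, then 8.95 and 8.84. The dry groups of the genotypes overlapped at the top (KD 8.89 ± 0.08, WT 8.79 ± 0.25; SD, n = 2). KD 14DAF overlapped WT 16DAF, and WT 14DAF and KD 16DAF stood apart from their neighbours.

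MCCB, its partner subunit, spanned the widest range. Its WT signals were 7.72 and 8.07 at 14DAF, 5.73 and 6.60 at 16DAF, and 8.72 and 8.43 in dry seeds. KD gave 7.48 and 7.05, then 6.48 and 6.64, then 10.03 and 9.69. From highest to lowest, KD dry, WT dry, WT 14DAF, KD 14DAF and the 16DAF groups were each separate from the next, and only the 16DAF groups of KD (6.56 ± 0.11) and WT (6.17 ± 0.62; SD, n = 2) overlapped each other.

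ETFALPHA, the alpha subunit of ETF, measured 7.98 and 8.36 at 14DAF, 7.30 and 6.90 at 16DAF, and 7.43 and 7.48 in dry WT seeds. The KD arrays gave 7.82 and 7.91, then 7.10 and 7.03, then 7.36 and 7.18. Both 14DAF groups lay above the 4 later groups, of which KD dry, WT 16DAF and KD 16DAF overlapped in turn.

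ETFBETA, its beta subunit, gave 7.77 and 8.03, then 7.51 and 7.46, then 7.79 and 7.18 in WT. In KD it was 7.59 and 8.12 at 14DAF, 8.47 and 8.62 at 16DAF, and 8.41 and 8.44 in dry seeds. The 4 later KD arrays were the highest of the 12. The 14DAF groups overlapped each other, as did WT 16DAF and WT dry (both with a mean of 7.49).

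ETFQO, the membrane enzyme that hands the electrons to ubiquinone, stayed between 6.54 and 6.93 on the 6 WT arrays. In KD it was 6.71 and 6.96 at 14DAF, 6.67 and 7.06 at 16DAF, and 7.49 on both dry arrays. Only KD dry was separate from its neighbour in the order of the groups; the other 5 groups overlapped in turn.

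Stage steps and genotype differences were tested with limma, a linear model over all 12 arrays with moderated variances, and a call is a Benjamini-Hochberg adjusted p under 0.05 over all 22746 probe sets. Values given as changes or differences are on the log2 scale with their standard error (SE). From 14DAF to 16DAF in WT, 4 of the 6 genes fell, while 19.5% of all probe sets were called and 10.3% fell. The median of the 6 was -0.90, against 0.05 for all probe sets. MCCB fell 3.32-fold (log2 change -1.73, adjusted p = 0.0017), IVD 2.51-fold (-1.33, SE 0.258, adjusted p = 0.00501), ETFALPHA 2.1-fold (-1.07, adjusted p = 0.00178) and MCCA 1.65-fold (-0.72, SE 0.166, adjusted p = 0.0118). ETFBETA measured -0.41 (95% interval -0.91 to 0.08) and ETFQO 0.07 (-0.29 to 0.44). MCCA missed the threshold without WT 14DAF replicate 1 (adjusted p = 0.0601) and without WT 16DAF replicate 2 (0.0681). From the arrays of this step alone, IVD (0.0528) and MCCA (0.058) missed it as well.

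Of 12 listed seed coat markers 3 were measured (BAN, DFR and DELTA-VPE), and 2 of them fell over the same days. Of all probe sets 10.3% fell in WT and 4.86% in KD. BAN fell in WT (-2.90, adjusted p = 0.00105) and KD (-1.64, adjusted p = 0.0384), as did DELTA-VPE (-4.04, adjusted p = 0.000245, and -2.27, adjusted p = 0.0143). DFR measured -0.58 (adjusted p = 0.116) and -0.59 (adjusted p = 0.15). The summed linear signal of the 3 was 769 to 1627 in WT at 14DAF and 154 to 158 at 16DAF. In KD it was 666 to 1709 and then 259 to 315, and in dry seeds it was 47.4 to 54.3 in WT and 48.9 to 51.2 in KD. Neither list for silique wall (4 loci) nor for embryo reserves (9) had a measured gene. Of 7 endosperm markers 1 (AGL62) did, with a linear signal of 7.46 to 12.5 over all arrays. Its log2 signal was 2.90 to 3.64, between percentiles 1.1 and 20.7 of the arrays, which is too low to report on endosperm. The part of seed coat tissue in the fall of the 4 genes was not tested, and fewer cells of a type and less RNA per cell cannot be told apart in whole seeds.

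In KD the same step gave 1 call among the 6 genes, with 9.5% of all probe sets called. ETFALPHA fell 1.74-fold (-0.80, SE 0.172, adjusted p = 0.0187). That call, against 4.86% of all probe sets falling, was lost without KD 14DAF replicate 1 (adjusted p = 0.0886) or 2 (0.0804) and without KD 16DAF replicate 1 (0.0676) or 2 (0.113). MCCB measured -0.70 (95% interval -1.32 to -0.09, adjusted p = 0.147), MCCA -0.52 (-0.89 to -0.15, adjusted p = 0.0802) and IVD -0.15 (-0.72 to 0.42). MCCB passed without either WT 16DAF array (adjusted p = 0.0483 in both). ETFBETA had the opposite sign, at 0.69 (0.20 to 1.18, adjusted p = 0.0817), and passed with the arrays centred on their medians (0.80, adjusted p = 0.0487). The KD step minus the WT step was 1.18 for IVD (SE 0.365, adjusted p = 0.188), 1.10 for ETFBETA (SE 0.312, adjusted p = 0.151) and 1.02 for MCCB (SE 0.389, adjusted p = 0.274). None of the 6 passed this limma test of the difference, in which 0.356% of probe sets were called, and 3 of the 6 had an unadjusted p under 0.05.

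IVD, MCCA and MCCB rose on drying in both genotypes. In WT 3 of the 6 genes rose from 16DAF to the dry seed, with 37.3% of all probe sets called and 20.4% rising. MCCB rose 5.31-fold, MCCA 2.57-fold (1.36, 95% interval 0.99 to 1.73) and IVD 2.15-fold (1.10, SE 0.258, adjusted p = 0.0064). The 3 ETF genes did not pass, at 0.35 for ETFALPHA, 0.13 for ETFQO and 0.00 for ETFBETA (-0.49 to 0.49). IVD missed the threshold without WT 16DAF replicate 1 (0.87, adjusted p = 0.0505), without WT dry replicate 1 (0.91, adjusted p = 0.061) and without both arrays whose source names conflict (adjusted p = 0.0641). ETFALPHA passed without WT 16DAF replicate 1 (adjusted p = 0.0495) and with the arrays centred on their medians (0.0276).

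In KD 4 of the 6 rose on drying, against 34.9% of probe sets called and 19.6% rising. MCCB rose 9.85-fold, IVD 4.61-fold (95% interval of the log2 change 1.63 to 2.78) and MCCA 3.75-fold (1.54 to 2.27), and these 3 kept their calls without any one array. ETFQO rose 1.54-fold (0.62, SE 0.163, adjusted p = 0.0123). It missed the threshold when replicate 1 of KD 16DAF was left out (adjusted p = 0.121), and likewise for replicate 1 (0.059) or 2 (0.0564) of KD dry and without the pair of arrays with conflicting source names (0.063). The KD change minus the WT change on drying was 1.10 for IVD (SE 0.365, adjusted p = 0.204), 0.89 for MCCB (SE 0.389, adjusted p = 0.352), 0.55 for MCCA (SE 0.234, adjusted p = 0.343) and 0.49 for ETFQO (SE 0.23, adjusted p = 0.383). By limma none of the 6 passed, with 1.38% of probe sets called, and 3 had an unadjusted p under 0.05. The drying steps and the earlier steps share the 16DAF arrays of their genotype.

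Array medians were lower in dry seeds, at 4.91 to 4.97, than at 14DAF, at 5.19 to 5.28. Centring the arrays on their medians raised every drying change by 0.20 in WT and 0.18 in KD, and changes from 14DAF to dry by 0.30 and 0.29. It raised the 14DAF to 16DAF changes by 0.10 and 0.11. Increases were 54.7% of all calls for drying WT seeds as deposited and 70.5% after centring, 56.1% and 70% for drying KD seeds, 47.2% and 59% for 14DAF to 16DAF in WT, and 48.8% and 67.4% for that step in KD. The difference between 3' and 5' signals of 3 control transcripts also moved with stage. In WT it was 4.05 to 4.16 at 14DAF, 3.55 to 4.25 at 16DAF and 3.26 to 3.45 in dry seeds. In KD it was 3.59 to 4.11, then 3.39 to 3.74 and then 3.33 to 3.47. The ranges at 14DAF and 16DAF overlapped in both genotypes, and those at 16DAF and in dry seeds overlapped in KD. The part of this 3' to 5' difference in the changes between stages was not tested.

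**Figure D2:**
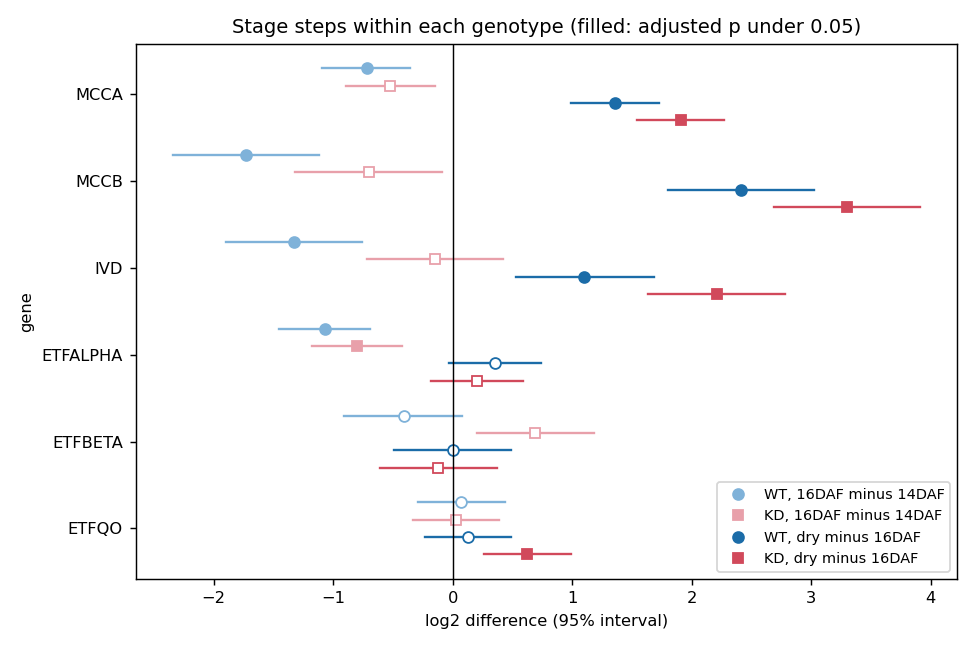
Log2 change of each gene over the 14DAF to 16DAF step (pale) and the 16DAF to dry step (dark) in WT (circles) and KD (squares), with 95% intervals; filled symbols have an adjusted p under 0.05. MCCA, MCCB and IVD lie left of 0 in the first step and right of 0 on drying, with -1.73 and then 2.41 for MCCB in WT.

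Over the whole interval from 14DAF to the dry seed, 2 of the 6 genes were called in WT, with 47.4% of all probe sets called, 25.8% higher and 21.5% lower. MCCA rose 1.55-fold (0.64, SE 0.166, adjusted p = 0.00873) and ETFALPHA fell 1.64-fold (-0.71, SE 0.172, adjusted p = 0.00542). MCCA missed the threshold without WT 14DAF replicate 2 (adjusted p = 0.0567), without WT dry replicate 2 (0.0869) and after quantile normalization (0.0532), and ETFALPHA without WT 14DAF replicate 2 (0.0579) and with the arrays centred (-0.41, adjusted p = 0.0664). MCCB measured 0.68 (95% interval 0.07 to 1.29, adjusted p = 0.0658), and it passed without either WT 16DAF array (adjusted p = 0.0171 in both), from the arrays of this interval alone (0.0249) and without dim probe sets (0.044). ETFBETA, at -0.41 (adjusted p = 0.155), passed without WT dry replicate 1 (-0.72, adjusted p = 0.0307). ETFQO, at 0.20, passed with the arrays centred (0.51, adjusted p = 0.0192), as did MCCB (0.98, adjusted p = 0.00676). IVD measured -0.23 (-0.80 to 0.35).

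In KD 5 of the 6 were called over this interval, 4 higher and 1 lower, with 43.8% of all probe sets called, 24% higher and 19.8% lower. MCCB rose 6.04-fold (2.60, SE 0.275), IVD 4.16-fold (2.06, SE 0.258, adjusted p = 8.34e-05), MCCA 2.61-fold (1.39, SE 0.166) and ETFQO 1.57-fold (0.66, SE 0.163, adjusted p = 0.00725), whereas ETFALPHA fell 1.51-fold (-0.59, SE 0.172, adjusted p = 0.0162). ETFQO missed the threshold without KD 14DAF replicate 1 (adjusted p = 0.0628). ETFALPHA missed it once replicate 2 of KD 14DAF (0.0808) or of KD dry (0.105) was left out, and with the arrays centred (-0.30, adjusted p = 0.168). ETFBETA measured 0.57 (adjusted p = 0.0602) and passed without KD 14DAF replicate 2 (0.83, adjusted p = 0.0223), without either WT dry array (adjusted p = 0.0329 in both) and with the arrays centred (0.86, adjusted p = 0.00857).

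KD and WT were then compared at each stage, which asks whether the mutant seeds carried other transcript levels of this pathway. At 14DAF IVD, MCCA and MCCB measured lower in KD. MCCA was 1.57-fold lower (-0.65, SE 0.166, adjusted p = 0.043), the only call among the 6 genes, with 7.27% of all probe sets called and 3.92% lower. In 5 of the 6 genes the arrays of the genotypes did not overlap, as in 49.8% of all probe sets. The MCCA call was lost under many settings. Without any one array other than a WT 16DAF or WT dry array the adjusted p ran from 0.0562 to 0.182. It was 0.067 with the replicate number as a block, 0.0653 with the arrays centred, 0.0714 after quantile normalization, 0.0595 with an intensity trend and 0.0916 from these 4 arrays alone. IVD measured -0.93 (95% interval -1.50 to -0.36, adjusted p = 0.0585), and it passed without WT 14DAF replicate 1 (-1.27, adjusted p = 0.0215), without either WT 16DAF array (0.0404 in both) and after the dim probe sets were dropped (0.0384) or quantile normalization (0.0477). MCCB measured -0.63 (-1.24 to -0.02, adjusted p = 0.217) and ETFALPHA -0.30 (-0.69 to 0.08). ETFQO (0.21) and ETFBETA (-0.04) had intervals that spanned 0.

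At 16DAF ETFBETA was the 1 gene called, with 11.1% of all probe sets called and 5.22% higher. It was 2.08-fold higher in KD (1.06, SE 0.221, adjusted p = 0.0128). The difference kept its size, and missed the threshold, without KD 16DAF replicate 2 (0.98, adjusted p = 0.0879) and without the pair of arrays with conflicting source names (1.08, adjusted p = 0.0591). Of the 3 seed coat markers DELTA-VPE was higher in KD at 16DAF (1.86, adjusted p = 0.0267), while BAN (0.10, adjusted p = 0.936) and DFR (-0.05, adjusted p = 0.939) did not pass, and their part in the ETFBETA difference was not tested. The arrays of the genotypes did not overlap for ETFBETA and MCCA, 2 of the 6 genes, as in 48.2% of all probe sets. MCCA measured -0.45 (95% interval -0.81 to -0.08, adjusted p = 0.123), MCCB 0.40 (-0.22 to 1.01), IVD 0.25 (-0.32 to 0.82), ETFQO 0.17 (-0.19 to 0.53) and ETFALPHA -0.04 (-0.42 to 0.35). Without WT 16DAF replicate 1 the MCCB difference was -0.04.

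In dry seeds 4 of the 6 genes were higher in KD, with 7.91% of all probe sets called and 4.01% higher. IVD was 2.55-fold higher (1.35, SE 0.258, adjusted p = 0.011), MCCB 2.44-fold (1.28, SE 0.275, adjusted p = 0.0189), ETFBETA 1.92-fold (0.94, SE 0.221, adjusted p = 0.029) and ETFQO 1.59-fold (0.67, SE 0.163, adjusted p = 0.0337). In each of these 4 genes both KD arrays lay above both WT arrays, and with ETFALPHA, lower in KD, 5 of the 6 did not overlap, as in 50.2% of all probe sets. MCCA (0.10, 95% interval -0.27 to 0.47) and ETFALPHA (-0.18, -0.57 to 0.20) did not pass. The median of the 6 was 0.81, against -0.01 for all probe sets.

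These 4 dry-seed calls depended on single arrays, while the differences changed less. Without KD dry replicate 1 none of the 6 passed, and IVD measured 1.21 (adjusted p = 0.0824) and MCCB 1.11 (0.123). Without WT dry replicate 2 none passed either, with IVD at 1.15 (0.102), MCCB at 1.14 (0.14) and ETFBETA at 0.64 (0.218). Without KD dry replicate 2 only IVD passed, and without WT dry replicate 1 IVD and ETFBETA did. MCCB was then 1.46 (0.0654) and 1.43 (0.0562), and ETFQO 0.67 (0.171) and 0.56 (0.186). Without both arrays of conflicting source names MCCB alone passed, with IVD at 1.21 (0.0563), ETFBETA at 0.95 (0.108) and ETFQO at 0.67 (0.127). ETFQO also missed the threshold after quantile normalization (0.62, adjusted p = 0.054) and with an intensity trend in the variances (0.0581). Each fit without 1 array of a group assumes that the remaining array varies like the other groups.

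**Figure D3:**
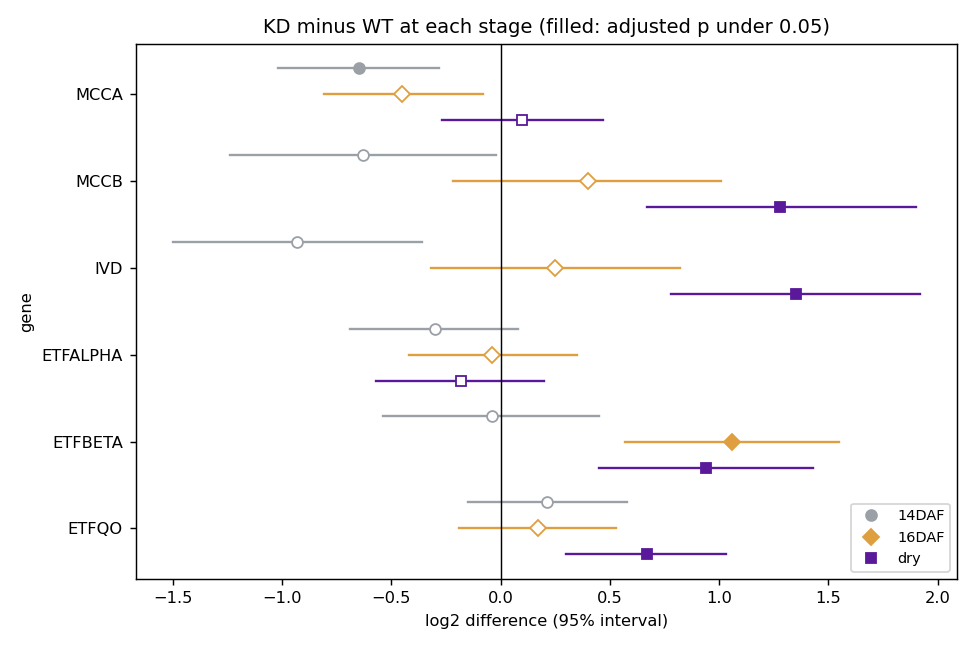
KD minus WT for the 6 genes at 14DAF (grey circles), 16DAF (orange diamonds) and in dry seeds (purple squares) on the log2 scale, with 95% intervals; filled symbols have an adjusted p under 0.05. For IVD the difference goes from -0.93 at 14DAF to 1.35 in dry seeds and for MCCB from -0.63 to 1.28, while all 3 points of ETFALPHA lie below 0.

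A contrast chosen after the values had been seen asked whether the genotypes differed in their change from 14DAF to dry, and it called IVD (2.28) and MCCB (1.92), with 2.77% of all probe sets called and 1.57% higher.

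Averaged over the 3 stages, 3 genes were called, with 20.2% of all probe sets called, 8.72% higher and 11.5% lower. ETFBETA (0.65, SE 0.128, adjusted p = 0.00508) and ETFQO (0.35, SE 0.0939, adjusted p = 0.0242) were higher in KD and MCCA (-0.33, SE 0.0956, adjusted p = 0.0334) was lower. These averages do not hold for every stage. Taken by stage, ETFBETA was called at 16DAF and in dry seeds and measured -0.04 at 14DAF. ETFQO was called by stage only in dry seeds and MCCA only at 14DAF. In the average, ETFBETA passed without any one array. ETFQO missed the threshold without any one of KD 14DAF replicate 2, KD 16DAF replicate 2, either KD dry array, WT 14DAF replicate 2 and WT dry replicate 1, with adjusted p from 0.0568 to 0.0713. MCCA kept its call without KD 14DAF replicate 2, KD 16DAF replicate 2, WT 16DAF replicate 2 and WT dry replicate 1, and without any other single array its adjusted p ran from 0.0531 to 0.0961. The MCCA call was also lost with the arrays centred (-0.28, adjusted p = 0.0719) and after quantile normalization (-0.31, adjusted p = 0.0597). Without the conflicting pair of arrays neither MCCA (0.0981) nor ETFQO (0.0885) passed. MCCB, at 0.35 (adjusted p = 0.161), passed without WT 16DAF replicate 2 (0.49, adjusted p = 0.0187).

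The subunits of an enzyme differed in their changes in some steps and not in others. In WT, MCCB minus MCCA was -0.50 and -0.03 on the 14DAF arrays and -1.80 and -0.74 on the 16DAF arrays, so the arrays did not overlap, while in KD the difference moved by -0.18 over this step with overlapping arrays. On drying MCCB gained 1.05 over MCCA in WT and 1.40 in KD, and the ranges of the arrays did not overlap in either case. In dry seeds this difference was 0.85 and 1.08 in KD and -0.54 and 0.10 in WT, a shift of 1.19 between the genotypes. For ETF, the beta minus alpha difference rose by 1.49 in KD from 14DAF (-0.23 and 0.21) to 16DAF (1.37 and 1.59), and by 0.66 in WT. On drying it moved by -0.35 in WT, with overlapping arrays, and by -0.33 in KD. It was 1.12 higher in KD than in WT in dry seeds. These are within-array differences between probe sets, given without a test and without the share of other pairs of probe sets that would not overlap, and their zero has no meaning as a ratio of transcripts.

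Likeness between the genes over the 12 arrays is given as a description, since the arrays fall into 6 groups that share stage and genotype. IVD and MCCB were most alike (Pearson r = 0.95, n = 12 arrays), and each was near the top of the other's list: MCCB ranked 2 of 22745 probe sets for IVD, and IVD ranked 6 for MCCB. MCCA followed with r = 0.88 to MCCB and 0.81 to IVD. ETFQO reached 0.66 with MCCB and 0.65 with IVD. The ETF subunits were not alike over these arrays (r = -0.17), and ETFALPHA had r = 0.15 to 0.20 with IVD, MCCA and MCCB.

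**Figure D4:**
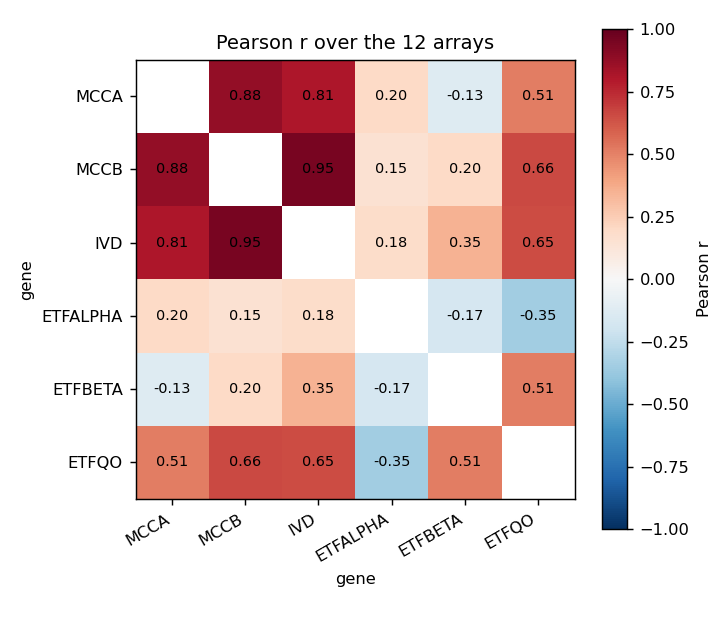
Pearson r between the log2 signals of each pair of the 6 genes over the 12 arrays; the diagonal is blank. IVD, MCCA and MCCB form a block of 0.81 to 0.95, and ETFALPHA has values from -0.35 to 0.20 with the other genes.

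Of the named genes outside the 6, those most like MCCB were AT1G21770 (r = 0.977), ACLA-3 (0.970), a subunit of ATP-citrate lyase, and the plastid ribosomal gene rps2 (0.939). ACLA-3 was also among the 3 for IVD (0.932), with AT1G71250 (0.938) and AT1G64355 (0.917). For MCCA they were AT1G32760 (0.963), AT5G24165 (0.962) and AT1G11860 (0.960). NTRC, a plastid thioredoxin reductase, led for ETFALPHA (0.967), before ARR15 (0.940) and ASPGA1 (0.937). AT5G28060 (0.942) led for ETFBETA and AT1G72060 (0.951) for ETFQO, over the same 12 arrays.

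Other steps of branched-chain breakdown were read from a list of 14 further loci. Probe sets that name a single gene covered 7 of them. On drying in WT 2 of the 7 fell (median -0.41), with 16.9% of all probe sets falling. In KD 2 fell and 1 rose (median -0.12), with 15.3% of all probe sets falling and 19.6% rising. The medians of the 6 genes above were 0.72 in WT and 1.26 in KD. AT5G09300 fell 11.4-fold in WT, from 9.25 and 8.93 to 5.32 and 5.84 (-3.51, SE 0.242, adjusted p = 2.47e-06). In KD it fell 14.3-fold, from 8.35 and 8.73 to 4.47 and 4.94, where the dry signals reached the array medians (4.91 and 4.92), so the size of that fall is uncertain. AT2G26800 fell 2.08-fold on drying in KD (-1.05, SE 0.19, adjusted p = 0.00142). In WT it fell 1.67-fold (-0.74, adjusted p = 0.0107), and it missed the threshold without WT 16DAF replicate 1 (-0.59, adjusted p = 0.0777) and without WT dry replicate 1 (-0.45, adjusted p = 0.102). With the arrays centred, which raised every change of this WT step by 0.20, 4 of the 7 genes were called, rises and falls counted together.

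ALDH6B2, the methylmalonate semialdehyde dehydrogenase of the valine branch, rose 1.58-fold on drying in KD (0.66, SE 0.177, adjusted p = 0.0143). It missed the threshold without KD 16DAF replicate 1 (0.43, adjusted p = 0.138) and without KD dry replicate 1 (0.57, adjusted p = 0.0962). From 14DAF to 16DAF in WT 2 of the 7 fell, AT3G60510 (-1.29, SE 0.171, adjusted p = 0.000618) and AT5G09300 (-0.89, adjusted p = 0.0267), and AT4G31810 rose (0.95, adjusted p = 0.0181). Over this step 19.5% of all probe sets were called in WT and 10.3% fell. From the arrays of this step alone AT4G31810 missed the threshold (adjusted p = 0.116). At 16DAF AT3G60510 lay below the array medians in both genotypes, between percentiles 37.7 and 43.4. The size of its change over this step is therefore uncertain in both. AT5G09300 missed the threshold without WT 14DAF replicate 1 (0.0611) or 2 (0.148) and without WT 16DAF replicate 2 (0.131), and AT4G31810 without WT 14DAF replicate 2 (0.148) and WT 16DAF replicate 2 (0.111). In KD AT3G60510 fell over these days (-0.94, adjusted p = 0.00927), but missed the threshold once replicate 1 of KD 14DAF (0.0814) or replicate 2 of KD 16DAF (0.0787) was left out. AT4G20930 and AT4G16800 passed in none of these steps. D2HGDH, the other ETF donor measured, fell 1.69-fold from 14DAF to 16DAF in WT (-0.76, adjusted p = 0.0205), which was lost without WT 14DAF replicate 2 (0.187) and without WT 16DAF replicate 1 (0.0538) or 2 (0.0713).

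Between the genotypes, AT4G31810 was higher in KD at 14DAF, with 6.72 and 6.99 against 5.80 and 5.41 (1.25, SE 0.238, adjusted p = 0.0128). It missed the threshold without KD 14DAF replicate 2 (adjusted p = 0.108) or WT 14DAF replicate 2 (0.107). Of all probe sets 11.1% were called at 16DAF and 7.91% in dry seeds. At these stages limma called none of the 7, with 3 at 16DAF and 1 in dry seeds at an unadjusted p under 0.05. Without WT 16DAF replicate 2 it called 1 at each of these stages, and in dry seeds also without WT 16DAF replicate 1. Averaged over the stages 2 of the 7 were called, AT4G31810 higher in KD (0.86, SE 0.138, adjusted p = 0.00165) and AT5G09300 lower (-0.70, SE 0.14, adjusted p = 0.00573). In this average 20.2% of all probe sets were called, 8.72% higher and 11.5% lower. The difference between this list and the 6 genes in dry seeds was not tested.

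**Figure D5:**
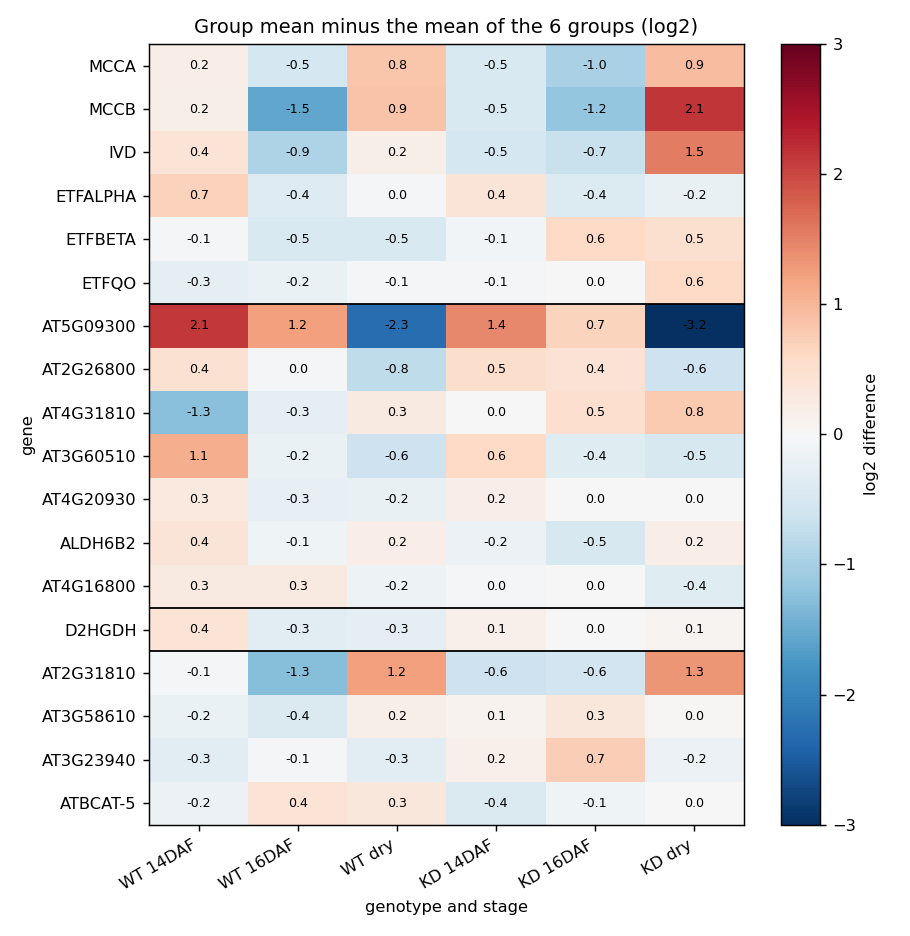
Group mean of each gene minus the mean of its 6 groups (log2; red above, blue below), for the 6 genes, the 7 other breakdown loci, D2HGDH and the 4 loci of synthesis, separated by lines. MCCA and MCCB are red in dry seeds of both genotypes and IVD mainly in those of KD, while AT5G09300 is blue in dry seeds. Before the mean was subtracted, AT5G09300 measured 9.98 at 14DAF and 5.58 in dry seeds in WT, and 9.31 and 4.71 in KD.

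Of 14 loci listed for branched-chain amino acid synthesis, 4 were measured. AT2G31810 rose on drying by 2.50 in WT (SE 0.329, adjusted p = 0.000174) and by 1.89 in KD (SE 0.329, adjusted p = 0.00116), from 5.57 and 5.80 to 8.46 and 7.92 in WT. At 16DAF, AT3G23940 (0.81, SE 0.118, adjusted p = 0.00231) and AT3G58610 (0.78, SE 0.137, adjusted p = 0.00582) were higher in KD, and ATBCAT-5, a branched-chain aminotransferase, was lower (-0.53, adjusted p = 0.0277). AT3G58610 missed the threshold without KD 16DAF replicate 2 (0.70), and AT3G23940 kept its call without any one array. From the arrays of the contrast alone neither AT3G23940 (adjusted p = 0.0541) nor AT3G58610 (0.0609) passed. ATBCAT-5 missed the threshold without KD 16DAF replicate 1 (-0.58) or 2 (-0.47) and without WT 16DAF replicate 1 (-0.41). It was also lost with the arrays centred (-0.47, adjusted p = 0.0664), with an intensity trend (0.0526), with the replicate block (0.0504) and from the arrays of the contrast alone (0.16). In dry seeds none of the 4 was called by limma between the genotypes.

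Other amino acids had 4 of 15 listed breakdown genes measured. On drying, ALDH7B4, an aldehyde dehydrogenase, rose in KD (1.07, SE 0.118, adjusted p = 5.37e-05) and in WT (0.51, SE 0.118, adjusted p = 0.0063), and MGL, methionine gamma-lyase, fell in WT (-1.87) and KD (-1.60). LKR/SDH (AT4G33150) fell in WT (-1.20, SE 0.267, adjusted p = 0.005), and the last, AT5G38710, fell in WT too (-1.95, adjusted p = 0.000419). Neither passed in KD, where LKR/SDH measured -0.38 (adjusted p = 0.331) and AT5G38710 -0.41 (adjusted p = 0.325). The limma test of the KD change minus the WT change on drying called 0 of these 4 genes, and 2 had an unadjusted p under 0.05. In that test 1.38% of all probe sets were called. AT5G38710 lay below the array medians in KD at 16DAF (4.75 and 4.74) and in dry seeds of both genotypes. The sizes of its drying changes are therefore uncertain. AIM1, the 1 of 8 listed genes of peroxisomal beta-oxidation that was measured, rose by 1.89 in WT and 2.12 in KD. No gene of the lists for biotin synthesis (4 loci) and sugar starvation (6) had a probe set naming it alone.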

How the data were processed

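The deposited values are log2 RMA signals; the log2 scale was inferred from their range, and RMA and Partek are named per the submitters' processing notes, without versions. Whether all arrays were normalized jointly is not stated there. RMA aligns array distributions, so a shift of all transcripts would be hidden. Per the labels' protocols, DNase-treated total RNA was labelled by repeated amplification. The number of arrays limits the precision, and no detection calls were used. Of 22810 probe sets 64 controls were removed and none was filtered; 13513 (59.4%) named 1 gene, 503 several and 8730 are unnamed here. Names came from the gene table of TAIR10.1.

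limma 3.58.1 (R 4.3.3) was fitted to 6 group means without further normalization (6 residual and 4.16 prior degrees of freedom), with 12 planned contrasts and 1 added after the values had been seen. Tests were two-sided with Benjamini-Hochberg adjustment over all probe sets and were tested on simulated data. Errors beside levels are SDs of 2 arrays. Members, lists, contrasts and alternatives were chosen with earlier results of these data known. All 6 genes are named, the measured genes of the breakdown and synthesis lists, up to 4 of other lists, and the 3 genes most alike. Alternatives were centring, quantile normalization, a variance trend, dropping dim probe sets, own arrays only, a replicate block, and leaving out arrays. Promoter motifs were not analysed here. Tables and plots used Python 3.11.15, pandas 2.3.3 and matplotlib 3.10.9.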

Additional observations from a re-analysis of the deposited data

Results flagged for a closer look

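For IVD and MCCB the difference between KD and WT changed between 14DAF and the dry seed by more than the error of the limma fit, in a contrast chosen after the values had been seen. KD minus WT went from -0.93 to 1.35 for IVD, a change of 2.28 (95% interval 1.47 to 3.09, SE 0.365, adjusted p = 0.0135). For MCCB it went from -0.63 to 1.28, a change of 1.92 (1.05 to 2.78, SE 0.389, adjusted p = 0.0326). Over all probe sets 2.77% were called in this contrast. At 14DAF both KD arrays of IVD (6.91 and 6.84) lay below both WT arrays (7.46 and 8.15), and in dry seeds both (9.07 and 8.79) lay above (7.78 and 7.38). MCCB was separated in the same directions. Arrays of the genotypes did not overlap in 49.8% of all probe sets at 14DAF and in 50.2% in dry seeds. The separation describes the same values from which the contrast was chosen and adds no support to it. MCCA (0.75, adjusted p = 0.133), ETFBETA (0.98, 0.138), ETFQO (0.45, 0.371) and ETFALPHA (0.12, 0.859) did not pass. IVD missed the threshold without KD dry replicate 1 (2.14, adjusted p = 0.0606) and without WT dry replicate 2 (2.08, 0.0597). MCCB missed it with the replicate number as a block (0.0531), and without any one 14DAF or dry array other than WT 14DAF replicate 1, with values from 1.70 to 2.13 and adjusted p from 0.0577 to 0.12. The summed seed coat signal, which also differs between 14DAF and dry seeds, overlapped between the genotypes at both stages; its part in the change was not tested.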

How the results depend on the processing

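Counts of the 6 genes called moved by over 1.5 times as follows. At 14DAF the count between genotypes (1 as deposited) was 0 with the arrays centred, from the arrays of the contrast alone, with an intensity trend, with the replicate block and without the pair of arrays with conflicting source names, and 2 without dim probe sets. Without those conflicting arrays it was 0 at 16DAF (1 as deposited), 1 in dry seeds (4) and 1 averaged over stages (3). Centring gave 2 for 14DAF to 16DAF in KD (1), the arrays of the contrast alone gave 2 for that step in WT (4), quantile normalization gave 1 for 14DAF to dry in WT (2), and the replicate block gave 1 for the added contrast (2). Smaller moves were 3 in dry seeds (4) after quantile normalization and with the trend, 2 averaged (3) with centring and quantile normalization, 4 for drying WT (3) with centring and 2 without the conflicting arrays, and 3 for drying KD (4) without them. For WT 14DAF to dry (2) the count was 3 with centring, own arrays, no dim probe sets and without the conflicting arrays, and for KD (5) it was 6 with own arrays and no dim probe sets. Leaving out each array in turn gave 0 to 2 for KD 14DAF to 16DAF, 0 to 2 for KD against WT at 14DAF, 0 to 1 at 16DAF, 0 to 4 in dry seeds, 1 to 4 averaged, 3 to 4 for WT 14DAF to 16DAF, 2 to 3 for drying WT, 3 to 4 for drying KD, 0 to 3 for WT 14DAF to dry, 4 to 6 for KD 14DAF to dry and 0 to 2 for the added contrast.

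Changes of sign occurred only in differences that were not called. With the arrays centred, ETFALPHA at 16DAF between genotypes was 0.03, ETFBETA at 14DAF 0.01, ETFBETA on drying in KD 0.06 and IVD from 14DAF to dry in WT 0.08; with quantile normalization the first pair was 0.02 and 0.03. Without the conflicting arrays, ETFALPHA was 0.17 and MCCB -0.04 between genotypes at 16DAF. Without single arrays, ETFALPHA ran from -0.23 to 0.17 in that comparison, from -0.07 to 0.31 in the genotype difference of the change from 14DAF to dry and from -0.35 to 0.05 in that on drying. ETFBETA ran from -0.42 to 0.18 in the last and from -0.31 to 0.22 between genotypes at 14DAF. ETFQO ran from -0.24 to 0.15 in the genotype difference of the 14DAF to 16DAF change, from -0.17 to 0.23 in that change in KD, from -0.01 to 0.15 in WT and from -0.03 to 0.36 between genotypes at 16DAF. IVD ran from -0.35 to 0.06 in the 14DAF to 16DAF change in KD and from -0.57 to 0.12 from 14DAF to dry in WT, MCCA from -0.07 to 0.28 between genotypes in dry seeds and MCCB from -0.04 to 0.83 at 16DAF. The cause was not tested.

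Whether the replicate numbers pair samples across groups is not known. The deviations of same-numbered arrays correlated at -0.33 to 0.42 over 15 pairs of groups, above 0.1 in 3. Each group gives only the difference between its own arrays, so these correlations cannot exclude pairing in some groups. With the block MCCA at 14DAF (adjusted p = 0.067) and MCCB in the added contrast were lost, and no other of the 6 genes changed its call.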
